A study of Mus musculus with 8 samples.

Results

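Imprinted genes are transcribed mainly from the allele inherited from the father or mainly from the allele inherited from the mother. The members described here are 42 imprinted genes chosen by symbol, grouped by the chromosomal domain that shares an imprinting control region and by the allele that is usually expressed. Of these, 34 have a row among the 21812 gene symbols of the count table, and 33 passed the filter on low counts that left 14229 genes for testing. Asb4, with 2 to 11 counts per library, did not pass. The long noncoding RNAs H19, Meg3, Rian, Mirg, Kcnq1ot1, Airn, Nespas and Peg13 are not analysed here. Of the 33 tested genes, 17 were classed as usually expressed from the paternal allele and 10 from the maternal allele. The other 6 were classed as imprinted in some tissues or for some isoforms (Ube3a, Copg2, Commd1, Gnas, Trappc9 and Inpp5f). These classes come from general knowledge of the mouse. They do not say whether a gene of any class is imprinted in these cells. Below, paternally and maternally expressed are names of these classes. The counts do not separate the alleles, so none of the values below shows which allele was transcribed.

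RNA-seq was done on mouse embryonic stem cells grown in a medium for induction of primitive endoderm, an extraembryonic lineage of the blastocyst. The deposited counts of all 8 libraries carry the label D2, which is not interpreted here. There were 4 groups of 2 libraries each, labelled WT and cKO in a Mettl3 line and WT and cKO in a Virma line. Mettl3 encodes the catalytic subunit and Virma a large scaffold subunit of the methyltransferase complex that places N6-methyladenosine (m6A) in transcripts, and the study asks what this mark does as primitive endoderm forms. All 4 groups shared the medium, and the sources used here do not give the deleted exons, the driver or timing of the deletion, or the number of clones, and nothing says that the libraries of a group came from separate cultures. The p-values below therefore measure only the spread between these libraries, which may be technical.

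In a domain, a control region carries DNA methylation on the allele from 1 parent, set in the germ line, and this mark decides which neighbouring genes are transcribed from which chromosome. After fertilisation the mark is kept by ZFP57 and ZFP445, zinc finger proteins that recruit TRIM28, and by the maintenance methyltransferase DNMT1. Many paternally expressed genes promote fetal or placental growth, and several maternally expressed genes restrain it.

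Total counts were 15568628 to 17306227 per library, with 15415 to 17086 genes detected. The imprinted genes took 0.218% to 0.447% of all counts. Between the Virma cKO libraries the counts of 14680 genes varied by less than sampling noise (0.914 as chi-square per degree of freedom), so the pair was counted as 1 sample and has no SD. The other pairs differed by more than sampling noise (1.31 to 2.84). Mettl3, measured in normalised CPM (counts scaled to the library size), was at 35.7 and 35.2 for Mettl3 WT and at 35.4 and 33.9 in the libraries labelled Mettl3 cKO. Its difference was −0.04 ± 0.07 on the log2 scale (SE; 95% interval −0.18 to 0.11), so this check does not show the deletion; which exons were deleted is not known from the labels. Virma was lower in Virma cKO, by −0.33 ± 0.06 (edgeR quasi-likelihood test, Benjamini-Hochberg adjusted p = 0.000102). Virma was at 93.3 and 88.7 CPM in Virma WT and at 70.8 and 73.8 in Virma cKO. Mettl3 fell by −0.42 ± 0.09 in the same comparison. The fall of Virma therefore does not by itself show its deletion. Every direction drawn for Mettl3 or Virma below is that of the libraries labelled cKO. Markers of primitive endoderm (19 genes) and pluripotency (18 genes) were expressed in all groups, at summed levels of 3097 to 18220 and 1861 to 2945 CPM.

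Levels differed widely between the genes. Per kilobase of exon, Peg10 was the highest imprinted gene in all 4 groups, at 134 CPM per kilobase in Mettl3 WT, 51.7 in Mettl3 cKO, 348 in Virma WT and 237 for Virma cKO. Peg10 is a retrotransposon-derived gene needed for placenta formation. Gnas, the stimulatory G protein alpha subunit, was at 41.3 to 47.0 CPM per kilobase, and Mest, a hydrolase-fold protein named after the mesoderm, at 33.8 to 50.4. The group means of Gnas and Mest exchanged order between groups. At the low end stood Asb4, Usp29 and Zim1, ranked 34, 33 and 32 in each group. Usp29 reached 0.103 to 0.195 CPM per kilobase.

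**Figure D1:**
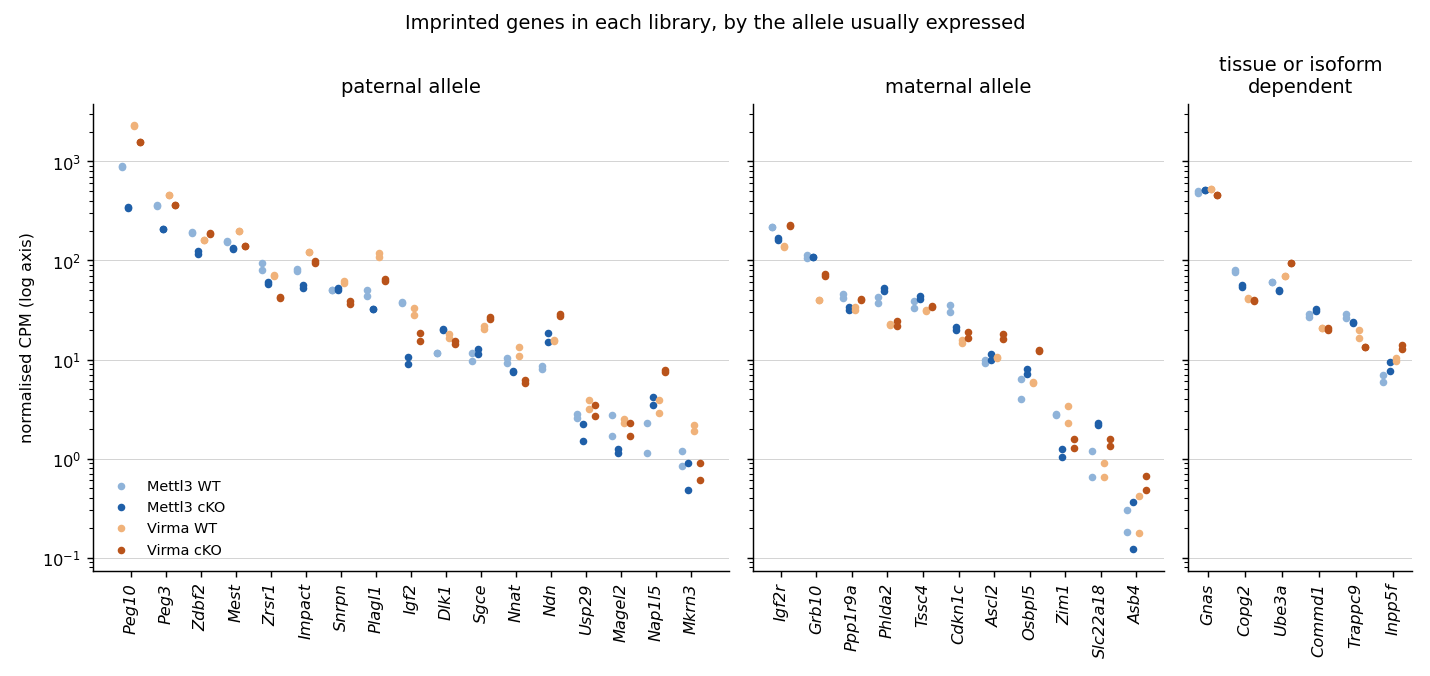
Normalised CPM on a log axis for the 34 imprinted genes with a row, 1 point per library, coloured by group and ordered within each class by the Mettl3 WT mean. Peg10 sits between 339 and 2342 CPM, and its 4 groups do not overlap; Asb4 lies below 1 CPM in every library.

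In Mettl3 cKO more imprinted genes fell than rose. Of 33, 17 were lower and 9 higher than in Mettl3 WT, against a background of 28.0% lower, 27.1% higher and 55.1% called in any direction over all 14229 genes. The median log2 fold change was −0.28, beside 0.01 for all genes. Among paternally expressed genes 10 of 17 were lower and 3 higher (median −0.55). Of 10 maternally expressed genes 4 were lower and 4 higher (median 0.07), and among the 6 genes imprinted in some tissues or isoforms 3 were lower and 2 higher. The classes were not tested against each other. A called change of at least 2-fold was seen for 5 of 33 (6.02% of all genes): Igf2, Peg10 and Zim1 fell, and Slc22a18 and Nap1l5 rose.

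In Virma cKO 13 of the 33 genes were lower and 11 higher than in Virma WT, against a background of 26.1% lower, 26.2% higher and 52.3% in any direction. Falls were called for 10 of the 17 paternally expressed genes and rises for 4, and their median was −0.33. Of the maternally expressed genes 5 of 10 rose and 1 fell, with a median of 0.50. The median of all genes was 0.02. Scaling by total count instead of TMM moves the median of all genes to 0.15 in this comparison, and 10 imprinted genes are then lower and 13 higher. A called change of 2-fold or more was seen for 3 of 33 (8.99% of all genes), a fall of Mkrn3 and rises of Nap1l5 and Osbpl5.

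**Figure D2:**
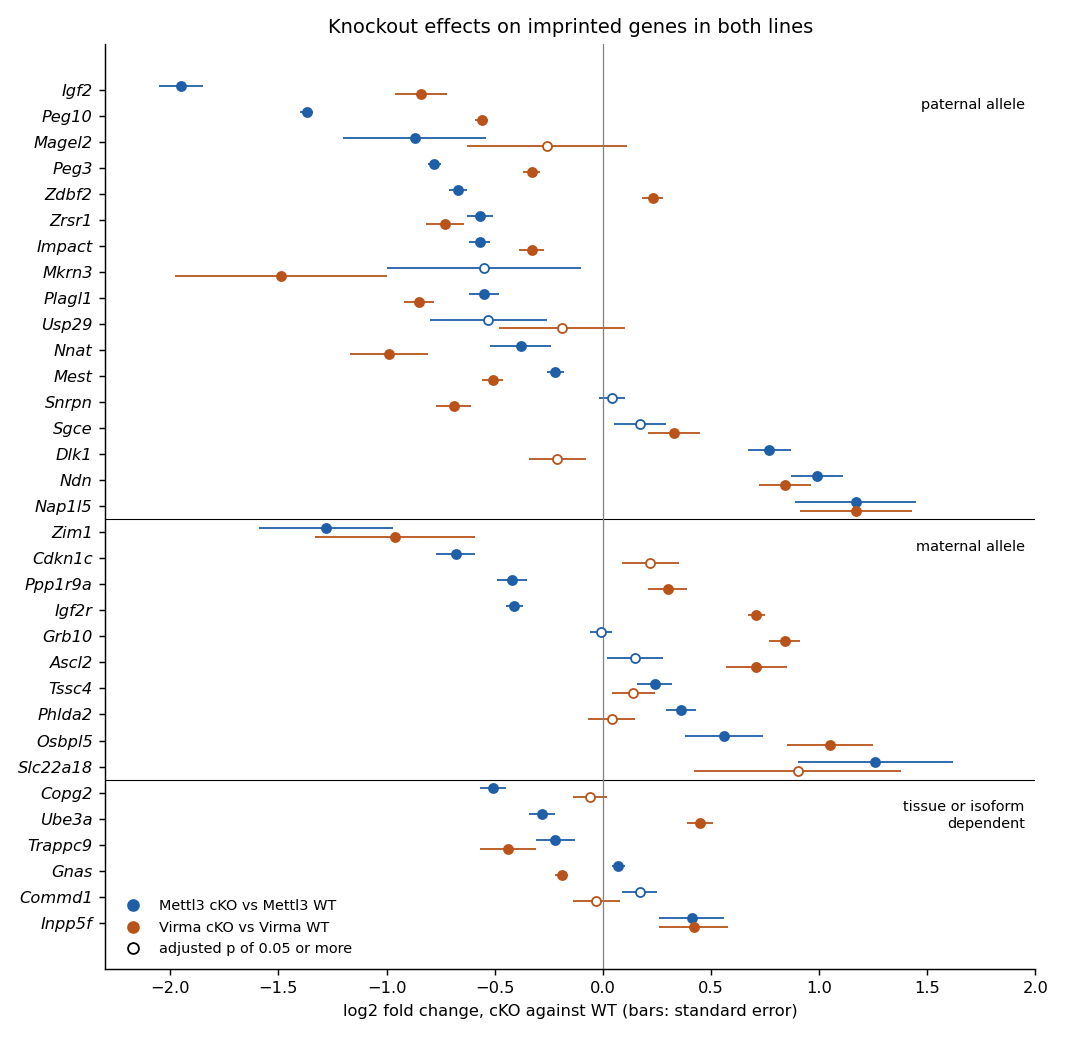
Log2 fold change of cKO against WT, with bars of 1 standard error, for the 33 tested imprinted genes in the Mettl3 line (blue) and the Virma line (orange); open points have an adjusted p of 0.05 or more. Igf2 has the lowest Mettl3 value (−1.95), and Igf2r, Ppp1r9a, Ube3a and Zdbf2 lie left of 0 in Mettl3 cKO and right of 0 in Virma cKO.

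The summed level of the 17 paternally expressed genes was 1979 and 1920 CPM in Mettl3 WT, 1087 and 1068 for Mettl3 cKO, 3634 and 3587 for Virma WT, and 2611 and 2620 for Virma cKO. Both knockouts lay below their own WT with no overlap, and Mettl3 WT lay below Virma cKO. The 10 maternally expressed genes summed to 507 and 489 CPM in Mettl3 WT, 439.7 and 443 for Mettl3 cKO, 299.9 and 301.5 for Virma WT, and 441 and 453 for Virma cKO. The low group here was Virma WT, and the libraries of the 2 cKO groups overlapped. The ratio of the paternal to the maternal sum was 3.92 in Mettl3 WT, 2.44 in Mettl3 cKO, 12.0 in Virma WT and 5.86 for Virma cKO. Peg10 alone made up 15.6% to 50.5% of the summed level of all 33 genes. Without it the ratio was 2.12, 1.66, 4.29 and 2.32 in the same order of groups, and the groups kept their order in this ratio. They did not in the paternal sum without Peg10, where Mettl3 WT (1076 and 1037 CPM) and Virma cKO (1037 and 1039) overlapped.

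**Figure D3:**
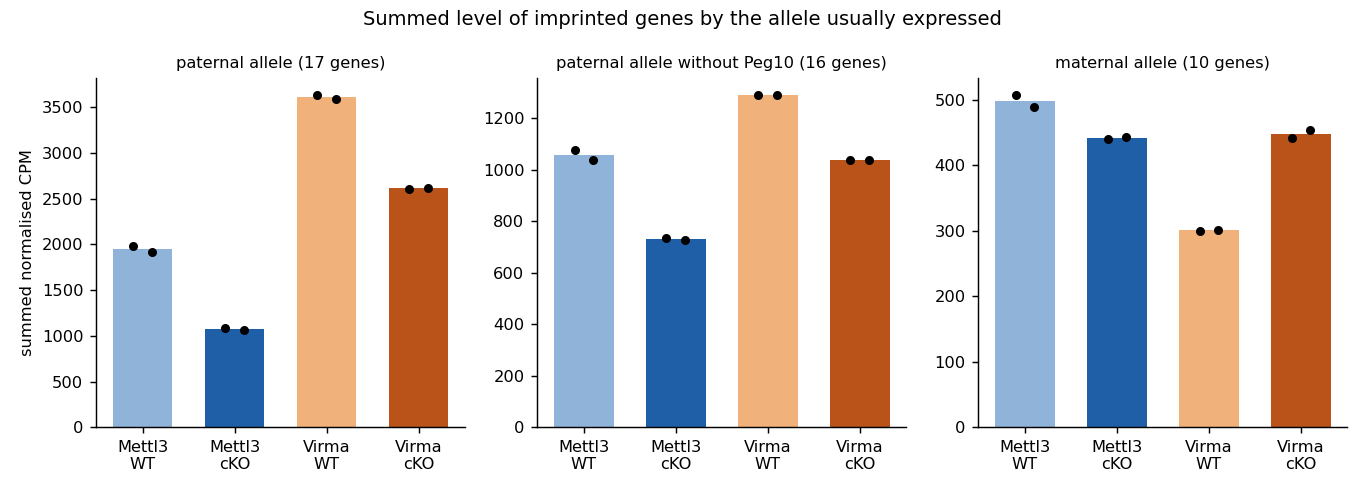
Summed normalised CPM of imprinted genes in the 4 groups; bars are group means, points are libraries, and each axis starts at 0. Without Peg10 the paternal sum was 1057 CPM in Mettl3 WT, 733 in Mettl3 cKO, 1291 in Virma WT and 1038 for Virma cKO, while the maternal sum is lowest in Virma WT.

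Igf2, the fetal insulin-like growth factor transcribed from the paternal chromosome, fell in both lines. It was at 37.4 and 38.3 CPM in Mettl3 WT and at 10.6 and 9.01 for Mettl3 cKO, and at 32.9 and 28.2 for Virma WT against 18.6 and 15.6 for Virma cKO. In each line both cKO libraries lay below both WT libraries. The change was −1.95 ± 0.10 on the log2 scale in Mettl3 cKO, a level 3.85-fold lower (edgeR adjusted p = 1.59e-13). In Virma cKO it was −0.84 ± 0.12 (edgeR adjusted p = 2.41e-06). The Mettl3 change was the larger fall, with a difference between the effects of 1.10 ± 0.16 (edgeR adjusted p = 8.29e-06).

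Igf2r, the maternally expressed receptor that carries IGF2 to lysosomes, moved in opposite directions. Its levels were 219 and 217 CPM in Mettl3 WT, 167 and 161 for Mettl3 cKO, 140.1 and 138 for Virma WT, and 225 and 229.9 for Virma cKO. The WT libraries of the Virma line were the lowest and the Virma cKO libraries the highest. Igf2r changed by −0.41 ± 0.04 in Mettl3 cKO (edgeR adjusted p = 9.5e-10) and by 0.71 ± 0.04 in Virma cKO (edgeR adjusted p = 2.11e-12), and the difference of 1.12 ± 0.06 passed the test (edgeR adjusted p = 1.87e-13). With Virma WT as its control, Mettl3 cKO instead lies higher, by 0.24.

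Grb10 encodes an adaptor that restrains signalling from the insulin and IGF receptors. It was at 114 and 105 CPM in Mettl3 WT, 109 and 109 for Mettl3 cKO, 40.0 and 39.5 for Virma WT, and 69.2 and 73.3 for Virma cKO. The Mettl3 groups overlapped, and the change of −0.01 had a 95% interval of −0.11 to 0.09. In the Virma line Grb10 rose by 0.84 ± 0.07 (edgeR adjusted p = 4.2e-10) from a WT level 2.75-fold below that of Mettl3 WT. Of 16 tested genes of the IGF pathway outside the imprinted set, 7 rose and 6 fell in Mettl3 cKO, and 9 rose and 3 fell in Virma cKO. Over all genes 27.1% rose and 28.0% fell in Mettl3 cKO, and 26.2% rose and 26.1% fell in Virma cKO. Igf2bp3, an RNA-binding protein first found on Igf2 transcripts, fell in both lines, by −0.65 ± 0.04 and −0.76 ± 0.06. Igfbp2, a secreted IGF carrier, fell by 0.18 ± 0.04 in Mettl3 cKO (−0.68 once a trend of the fold changes with exon length and GC content was taken out) and by −1.59 ± 0.05 in Virma cKO. Other IGF-binding proteins rose in both lines: Igfbp5 by 0.88 ± 0.09 and 1.10 ± 0.07, Igfbp7 by 0.99 ± 0.17 and 1.08 ± 0.16, Igfbp4 by 1.21 ± 0.06 and 0.58 ± 0.07, and Igfbp3 by 0.31 ± 0.07 in Mettl3 cKO and, from 40.56 and 40.6 to 99.7 and 100.4 CPM, in Virma cKO. The Mettl3 rise of Igfbp3 was 0.14 and not called with the trend removed, and against Virma WT the Mettl3 cKO values of Igfbp3 (−0.24), Igfbp5 (−1.03) and Igfbp7 (−0.10) turned sign.

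**Figure D4:**
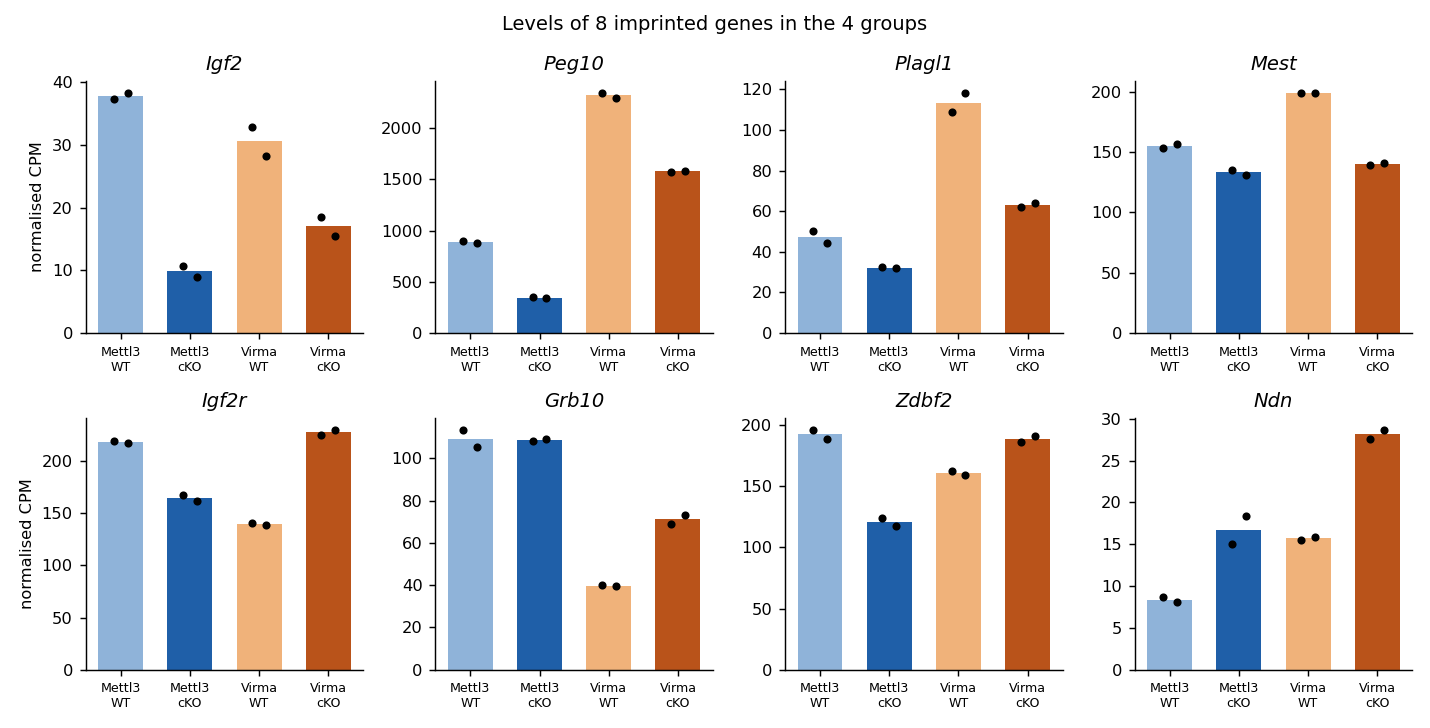
Normalised CPM of Igf2, Peg10, Plagl1, Mest, Igf2r, Grb10, Zdbf2 and Ndn; bars are group means, points are libraries, and each axis starts at 0. Igf2, Peg10, Plagl1 and Mest are lower in cKO than in WT in both lines, Ndn is higher in both, and Igf2r and Zdbf2 are lower in Mettl3 cKO and higher in Virma cKO.

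Peg10 fell in both lines as well. It was at 902 and 883 CPM in Mettl3 WT and 349 and 339 for Mettl3 cKO, and at 2342 and 2297 for Virma WT and 1574 and 1581 for Virma cKO. The 4 groups did not overlap, and both Virma groups exceeded both Mettl3 groups. The change was −1.37 ± 0.03 in Mettl3 cKO (edgeR adjusted p = 6.14e-21) and −0.56 ± 0.03 in Virma cKO (edgeR adjusted p = 3.58e-13), with the difference of 0.82 ± 0.04 past the threshold. Its neighbour Sgce, epsilon-sarcoglycan, starts next to it and is transcribed the other way. It was at 11.6 and 9.76 CPM in Mettl3 WT, 11.5 and 12.6 for Mettl3 cKO, 21.8 and 20.2 for Virma WT, and 27.2 and 25.6 for Virma cKO. The Mettl3 groups overlapped, with a change of 0.17 (95% interval −0.08 to 0.42), and the Virma groups did not, with a rise of 0.33 ± 0.12. Without Virma WT library 2 that rise was 0.28 and did not pass the test. In Mettl3 cKO Sgce did pass without Mettl3 WT library 1 (0.30). Against Virma WT, Mettl3 cKO was lower in Sgce by −0.80 (edgeR adjusted p = 9.29e-07), as it was in Peg10 by −2.75. Ppp1r9a, the actin-binding protein neurabin, farther along the domain and maternally expressed, fell by 0.42 ± 0.07 in Mettl3 cKO and rose by 0.30 ± 0.09 in Virma cKO; the rise was 0.26 and not called without Virma WT library 1. After removal of the length and GC trend Ppp1r9a was at −0.21 in Mettl3 cKO and, not called, at 0.05 in Virma cKO. Sgce was then at 0.49 and called in Mettl3 cKO, and at 0.10 and not called in Virma cKO.

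The Peg3 domain holds Peg3 and Usp29, paternally expressed genes that start a short distance apart and are transcribed away from each other, and the maternally expressed Zim1. The RefSeq start sites are 164 bases apart. The 250 bases before each start are shown because these genes share this stretch and yet lie near the top and near the bottom of the levels; the capitals mark the 163 bases between the start sites, read 5′ to 3′ on the strand of each gene (build GRCm38.p6; Peg3 on the minus strand at chr7:6730420-6730669, Usp29 on the plus strand at chr7:6730333-6730582).
Peg3: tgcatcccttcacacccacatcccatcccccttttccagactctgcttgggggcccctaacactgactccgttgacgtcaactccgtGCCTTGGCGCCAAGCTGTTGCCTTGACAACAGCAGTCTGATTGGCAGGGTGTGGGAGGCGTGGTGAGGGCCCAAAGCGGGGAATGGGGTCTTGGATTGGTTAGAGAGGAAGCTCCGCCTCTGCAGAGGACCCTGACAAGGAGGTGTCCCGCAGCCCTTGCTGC
Usp29: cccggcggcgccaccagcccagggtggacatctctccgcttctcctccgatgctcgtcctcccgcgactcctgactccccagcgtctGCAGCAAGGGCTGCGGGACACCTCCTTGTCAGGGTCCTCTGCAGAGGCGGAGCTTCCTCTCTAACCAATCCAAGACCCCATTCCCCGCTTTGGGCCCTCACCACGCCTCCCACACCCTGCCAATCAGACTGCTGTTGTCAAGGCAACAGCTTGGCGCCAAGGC

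Peg3, a zinc finger protein, was at 359.9 and 353 CPM in Mettl3 WT and 208 and 207 for Mettl3 cKO, and at 459 and 454 for Virma WT and 365 and 361 for Virma cKO. In both lines the cKO libraries were the lower ones, without overlap. It changed by −0.78 ± 0.03 in Mettl3 cKO (edgeR adjusted p = 9.51e-16) and by −0.33 ± 0.04 in Virma cKO (edgeR adjusted p = 2.91e-08). The difference between these effects, 0.45 ± 0.05, was 0.05 after removal of the length and GC trend. Usp29, a ubiquitin-specific peptidase, had 25 to 65 counts per library, and its changes of −0.53 ± 0.27 and −0.19 ± 0.29 did not pass the test. Zim1, another zinc finger protein, was at 2.76 and 2.81 CPM in Mettl3 WT and 1.26 and 1.03 for Mettl3 cKO, and at 2.27 and 3.40 for Virma WT and 1.57 and 1.28 for Virma cKO. All cKO libraries lay below all WT libraries, with changes of −1.28 ± 0.31 and −0.96 ± 0.37. The Virma call rested on 21 to 57 counts per library: without Virma WT library 2 the value was −0.64, without Virma cKO library 2 it was −0.85, and leaving out either Mettl3 cKO library left it at −0.96 with an adjusted p above the threshold.

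ZFP57 binds the hexamer TGCCGC where its CpG is methylated, and this hexamer recurs in imprinting control regions. Promoter windows were matched for 29 of the 34 genes in RefSeq (GRCm38.p6), and the 250 bases before each start were searched on both strands (TGCCGC or its reverse complement GCGGCA). At least 1 window held a match in 7 of these 29 genes (24.1%), in 4 of 14 paternally and 2 of 10 maternally expressed genes, and in 12.0% of the 16770 genes of the count table that have a window. By window the share was 17% of 47 for the imprinted genes and 8.68% of all 32851. Mest counts there with overlapping windows, which start at chr6:30737800 and chr6:30737803. The hexamer contains a CpG, and windows of the imprinted genes held a median of 13 CpG sites, against 6 over all windows. By gene the medians were 14 and 11. Whether the shares differ beyond this was not tested. The 4 paternally expressed genes with a match are printed with the hexamer in capitals, since they moved in different directions: Mest and Plagl1 fell in both lines, Nap1l5 rose in both, and Zdbf2 fell in Mettl3 cKO and rose in Virma cKO. Each is read 5′ to 3′ on the strand of its gene, at chr6:30737800-30738049 (plus), chr10:13090582-13090831 (plus), chr6:58907127-58907376 (minus) and chr1:63200108-63200357 (plus). Mest and Zdbf2 also have a window without the hexamer, before the starts at chr6:30733506 and chr1:63273269, which is not shown.
Mest: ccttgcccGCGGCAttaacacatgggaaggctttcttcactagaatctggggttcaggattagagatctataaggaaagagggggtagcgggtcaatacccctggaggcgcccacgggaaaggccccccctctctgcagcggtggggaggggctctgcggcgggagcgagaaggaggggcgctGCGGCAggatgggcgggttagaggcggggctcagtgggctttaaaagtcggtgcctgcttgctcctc
Plagl1: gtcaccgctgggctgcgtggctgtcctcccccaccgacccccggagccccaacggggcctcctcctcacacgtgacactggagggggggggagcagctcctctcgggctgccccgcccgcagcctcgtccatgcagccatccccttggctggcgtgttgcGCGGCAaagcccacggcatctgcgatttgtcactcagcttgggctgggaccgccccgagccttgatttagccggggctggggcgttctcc
Nap1l5: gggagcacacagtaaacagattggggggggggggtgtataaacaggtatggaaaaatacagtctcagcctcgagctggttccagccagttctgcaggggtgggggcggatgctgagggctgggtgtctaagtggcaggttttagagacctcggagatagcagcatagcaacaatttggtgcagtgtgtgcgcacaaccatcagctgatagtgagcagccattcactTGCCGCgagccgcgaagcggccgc
Zdbf2: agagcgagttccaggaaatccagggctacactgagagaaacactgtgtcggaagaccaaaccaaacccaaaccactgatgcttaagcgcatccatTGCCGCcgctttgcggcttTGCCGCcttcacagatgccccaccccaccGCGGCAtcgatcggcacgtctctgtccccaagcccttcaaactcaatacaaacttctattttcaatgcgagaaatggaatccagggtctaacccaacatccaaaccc

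Mest was at 153 and 157 CPM in Mettl3 WT, 135 and 131 for Mettl3 cKO, 199 and 199 for Virma WT, and 139 and 141 for Virma cKO. Both cKO groups lay below their WT, by −0.22 ± 0.04 and −0.51 ± 0.05. Plagl1, a zinc finger transcription factor that acts on other imprinted growth genes, was at 50.3 and 44.1 CPM in Mettl3 WT and 32.4 and 32.1 for Mettl3 cKO, and at 109 and 118 for Virma WT and 62.3 and 64.3 for Virma cKO. Its falls were −0.55 ± 0.07 (edgeR adjusted p = 7.67e-07) and −0.85 ± 0.07 (edgeR adjusted p = 8.63e-10). Even after its fall, Virma cKO stayed above Mettl3 WT.

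Nap1l5, a nucleosome assembly protein-like gene inside an intron of Herc3, was low, at 2.28 and 1.14 CPM in Mettl3 WT, 4.21 and 3.51 for Mettl3 cKO, 3.88 and 2.86 for Virma WT, and 7.90 and 7.41 for Virma cKO. It rose by 1.17 ± 0.28 and by 1.17 ± 0.26 in the Mettl3 and Virma lines (edgeR adjusted p = 0.00103 and 0.00058). Zdbf2, a zinc finger DBF-type protein, was at 196 and 189 CPM in Mettl3 WT and 124 and 117 for Mettl3 cKO, and at 162 and 159 for Virma WT and 186 and 191 for Virma cKO. Mettl3 cKO was the lowest group and no groups within a line overlapped. Zdbf2 changed by −0.67 ± 0.04 (edgeR adjusted p = 1.03e-12) and 0.23 ± 0.05 (edgeR adjusted p = 0.000247), with a difference of 0.90 ± 0.06 (edgeR adjusted p = 4.03e-11). After removal of the length and GC trend these values were −0.42, −0.01 and 0.40, the Virma one not called.

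Dlk1, a transmembrane protein related to Notch ligands and the only gene of its domain with a row here, was at 11.6 and 11.7 CPM in Mettl3 WT, 20.2 and 19.7 for Mettl3 cKO, 18.0 and 16.5 for Virma WT, and 15.5 and 14.3 for Virma cKO. Mettl3 WT was the lowest group. The rise in Mettl3 cKO was 0.77 ± 0.10 (edgeR adjusted p = 1.06e-06), and the Virma change of −0.21 had a 95% interval of −0.47 to 0.05; with the length and GC trend removed it was −0.35 and called. The effects differed by −0.98 ± 0.16 (edgeR adjusted p = 3.45e-05). Against the Virma WT libraries, Mettl3 cKO was 0.21 higher and the call was lost.

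Of the 6 maternally expressed genes of the Kcnq1ot1 domain, 4 rose and 1 fell in Mettl3 cKO, where 27.1% of all genes rose. In Virma cKO 2 of 6 rose and none fell, with 26.2% of all genes rising. The Mettl3 count was 1 higher and 1 lower with DESeq2 and also with the length and GC trend removed, which left the median of the 6 at −0.10. The gene that fell was Cdkn1c, the cell cycle inhibitor p57, at 30.0 and 35.2 CPM in Mettl3 WT and 19.7 and 21.2 for Mettl3 cKO, a change of −0.68 ± 0.09 (edgeR adjusted p = 1.28e-06) that was −1.07 with the length and GC trend removed. In the Virma line Cdkn1c was at 14.7 and 15.7 CPM in WT and 16.4 and 19.02 in cKO, with a change of 0.22 (95% interval −0.05 to 0.49). Without Virma cKO library 1 this value was 0.32 and passed the test. All Virma libraries lay below the Mettl3 cKO libraries, so against Virma WT the Mettl3 cKO value was 0.43.

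Phlda2, which limits placental growth, rose in Mettl3 cKO by 0.36 ± 0.07, from 42.6 and 37.0 to 48.8 and 53.3 CPM. It stood at 21.8 to 24.6 CPM in the Virma line, where its groups overlapped. Ascl2, a transcription factor needed for the trophoblast, rose in Virma cKO by 0.71 ± 0.14, from 10.6 and 10.3 to 18.2 and 16.1 CPM, and was at 9.29 to 11.3 CPM in the Mettl3 line. Osbpl5, a lipid transfer protein, rose in Virma cKO by 1.05 ± 0.20, from 5.91 and 5.84 to 12.1 and 12.5 CPM. In Mettl3 cKO its rise was 0.56 ± 0.18, and it was no longer called without Mettl3 WT library 1 (0.27) or Mettl3 cKO library 2 (0.47), or with the length and GC trend removed (0.38). Slc22a18, a transporter with 11 to 38 counts per library, rose by 1.26 ± 0.36 in Mettl3 cKO. Its Virma value of 0.90 ± 0.48 was not called, but passed when either Mettl3 WT library was left out. Tssc4, a splicing-related protein, rose by 0.24 ± 0.08 in Mettl3 cKO; without Mettl3 WT library 2 the value was 0.13 and without Mettl3 cKO library 2 it was 0.21, both not called. After removal of the length and GC trend Phlda2 was at −0.03 and Tssc4 at −0.17 in Mettl3 cKO.

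In the Snrpn-Ube3a domain the paternally expressed genes did not move together. Snrpn, the splicing protein SmN, was at 50.6 and 50.7 CPM in Mettl3 WT and 50.9 and 53.0 for Mettl3 cKO (change 0.04, 95% interval −0.09 to 0.16), and at 59.4 and 62.7 for Virma WT and 39.2 and 36.4 for Virma cKO. Its fall in Virma cKO was −0.69 ± 0.08 (edgeR adjusted p = 5.88e-08). Ndn, which encodes necdin, a MAGE-family protein, moved the other way. It was at 8.69 and 8.08 CPM in Mettl3 WT, 15.0 and 18.4 for Mettl3 cKO, 15.5 and 15.9 for Virma WT, and 27.6 and 28.7 for Virma cKO, with rises of 0.99 ± 0.12 (edgeR adjusted p = 2.76e-07) and 0.84 ± 0.12 (edgeR adjusted p = 3.27e-06). Its Mettl3 cKO libraries lay on either side of the Virma WT libraries, and against these the change was 0.09 and not called.

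Magel2, another MAGE-family gene, had 19 to 46 counts per library and changed by −0.87 ± 0.33 in Mettl3 cKO; leaving out any Mettl3 library except WT library 2, or either Virma WT library, ended the call, with values of −0.47 (without Mettl3 WT library 1), −0.94 and −0.81 (without Mettl3 cKO library 1 and library 2) and −0.87. Mkrn3, a makorin ubiquitin ligase with 8 to 37 counts per library, changed by −1.49 ± 0.49 in Virma cKO. Without Virma WT library 1 or library 2 this was −1.59 and −1.39, and no longer called. Ube3a, the ubiquitin ligase of the domain, maternally expressed in neurons, was at 61.0 and 60.8 CPM in Mettl3 WT, 50.9 and 49.5 for Mettl3 cKO, 69.4 and 69.2 for Virma WT, and 94.9 and 94.7 for Virma cKO. It fell by 0.28 ± 0.06 in the Mettl3 line and rose by 0.45 ± 0.06 in the Virma line. After removal of the length and GC trend these values were 0.15 and 0.13, and their difference was −0.02 in place of 0.73.

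Other paternally expressed genes fell in both lines. Impact, which restrains the kinase GCN2, went from 82.9 and 79.1 to 53.0 and 56.0 CPM in the Mettl3 line and from 122 and 122 to 95.2 and 98.9 in the Virma line, by −0.57 ± 0.05 and −0.33 ± 0.06. Zrsr1, a splicing-factor retrogene in an intron of Commd1, went from 94.99 and 80.6 to 60.7 and 58.1 CPM and from 70.8 and 70.3 to 42.3 and 43.0, by −0.57 ± 0.06 and −0.73 ± 0.09. Its host Commd1, a copper and trafficking protein, was not called in either line, with values of 0.17 ± 0.08 and −0.03 ± 0.11; without Mettl3 WT library 1 the Mettl3 value was 0.22 and was called. Nnat, neuronatin, a small membrane protein in an intron of Blcap, fell by 0.99 ± 0.18 in Virma cKO, from 10.9 and 13.2 to 6.28 and 5.83 CPM. Its Mettl3 value of −0.38 ± 0.14 lost the call without Mettl3 WT library 1 (−0.29), Mettl3 cKO library 1 (−0.34) or Mettl3 cKO library 2 (−0.41); with the length and GC trend removed it was −0.77.

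Gnas, one of the genes imprinted only in some tissues or isoforms, was at 486 and 499 CPM in Mettl3 WT, 518 and 514 for Mettl3 cKO, 524 and 528 for Virma WT, and 461 and 463 for Virma cKO, by 0.07 ± 0.03 and −0.19 ± 0.03. The small Mettl3 rise was not called without Mettl3 WT library 1 (0.05) or without Mettl3 cKO library 1 (0.06) or library 2 (0.07), and with the length and GC trend removed the values were −0.04 and −0.41. Copg2, a coatomer subunit that overlaps the end of Mest, fell by 0.51 ± 0.06 in Mettl3 cKO, from 77.1 and 81.1 to 56.5 and 54.5 CPM, and its Virma value was −0.06 (95% interval −0.22 to 0.11), which became −0.22 and called with that trend removed. Trappc9, a trafficking complex subunit, changed by −0.22 ± 0.09 and −0.44 ± 0.13. The Mettl3 call was lost without any of the 4 Mettl3 and 2 Virma WT libraries except Mettl3 WT library 2 (−0.16 to −0.24), and the Virma call without Virma WT library 2 (−0.31). Inpp5f, an inositol phosphatase with a paternally expressed isoform, changed by 0.41 ± 0.15 and 0.42 ± 0.16. These calls were lost without Mettl3 WT library 2 (0.29) or Mettl3 cKO library 1 (0.25), and without Virma WT library 1 (0.47), Virma WT library 2 (0.38) or Virma cKO library 2 (0.36); with the trend removed the Virma value was 0.23 and not called. Counts of overlapping pairs (Mest and Copg2, Zrsr1 and Commd1, Nap1l5 and Herc3, Nnat and Blcap, Igf2r and Airn, Gnas and Nespas, Trappc9 and Peg13) are uncertain, since the sources used here give neither the strand setting nor the annotation used for counting.

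The 2 comparisons have no library in common. In both, 10 of 33 imprinted genes fell (30.3%, against 14.2% of all genes tested): Igf2, Peg3, Zim1, Peg10, Plagl1, Mest, Nnat, Impact, Zrsr1 and Trappc9. All of them except Zim1 and Trappc9 are usually expressed from the paternal allele. The 4 that rose in both were Osbpl5, Ndn, Nap1l5 and Inpp5f (12.1%, against 13.7% of all genes). A fall in Mettl3 cKO with a rise in Virma cKO was found for Ppp1r9a, Igf2r, Ube3a and Zdbf2 (12.1%, against 3.13% of all genes). Gnas alone showed the reverse pattern (3.03%, against 3.63% of all genes). With the length and GC trend removed, 11 of 33 fell in both (33.3%, against 21.8% of all genes) and Ndn and Nap1l5 rose in both (6.06%, against 9.76%). Of the 4 genes that fell in Mettl3 cKO and rose in Virma cKO only Igf2r then did so (3.03%, against 0.928% of all genes). The reverse was seen for Dlk1 in place of Gnas (3.03%, against 3.38% of all genes).

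The effect in Virma cKO was tested directly against that in Mettl3 cKO. It was higher for 12 of 33 imprinted genes and lower for 6, against a background of 17.9%, 21.2% and, in any direction, 39.1%. All 5 maternally expressed genes that differed had the higher value in the Virma line (Igf2r, Cdkn1c, Grb10, Ppp1r9a and Ascl2), and the median over the 10 maternally expressed genes was 0.53. The 17 paternally expressed genes split into 5 higher and 5 lower, with a median of 0.00. For Igf2 and Igf2r, 2 of 33 genes (4.64% of all genes), the effects differed by at least 2-fold. Ascl2, at 0.56 ± 0.19, lost its call without Mettl3 cKO library 1 (0.47), Virma WT library 1 (0.58) or library 2 (0.54), or Virma cKO library 1 (0.47). Phlda2, at −0.31 ± 0.13, was not called but passed without Mettl3 WT library 1 (−0.42) or Virma cKO library 2 (−0.40). With the length and GC trend removed the difference lost its call for Peg3 (0.05), Ppp1r9a (0.26), Copg2 (0.21), Nnat (−0.38), Ube3a (−0.02) and Impact (−0.06), and gained one for Zrsr1 (−0.32) and Commd1 (−0.44). It then was 0.40 for Zdbf2 and −0.57 for Plagl1.

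The WT libraries of the lines also differed from each other. Of 33 imprinted genes, 14 were higher and 11 lower in Virma WT than in Mettl3 WT, against a background of 25.4%, 22.2% and, in any direction, 47.6%. Of the 17 paternally expressed genes 11 were higher and 3 lower (median 0.38), and of the 10 maternally expressed genes 5 were lower and none higher (median −0.34). Peg10 was 2.60-fold higher (1.38 ± 0.03, edgeR adjusted p = 1.24e-21) and Plagl1 2.40-fold higher (1.27 ± 0.06, edgeR adjusted p = 4.44e-14) in Virma WT. Grb10 (−1.46 ± 0.05), Cdkn1c (−1.10 ± 0.10) and Phlda2 (−0.83 ± 0.08) were lower. The 5 of 33 genes that differed by at least 2-fold (6.15% of all genes) were Peg10, Plagl1, Grb10, Cdkn1c and Mkrn3. Mkrn3 was higher in Virma WT by 1.01, and its call was lost without Mettl3 WT library 2 (0.78), Virma WT library 1 (1.11) or Virma WT library 2 (0.90), and in DESeq2. This contrast shares its libraries with both knockout comparisons, so its values are only set beside theirs. The labels name 2 library kits without saying which library had which, so it is not known whether the kit differed between the lines.

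Because the WT groups differed, Mettl3 cKO was also set against the Virma WT libraries. There 16 of 33 imprinted genes were lower and 9 higher, against 29.2% lower, 29.3% higher and 58.5% in any direction over all genes. Of the paternally expressed genes 14 of 17 were lower and none higher (median −0.80), Dlk1, Ndn and Nap1l5 being the 3 not called. Of these 14, Usp29, Sgce, Snrpn and Mkrn3 were not called against Mettl3 WT. The contrast uses the Mettl3 cKO libraries again and includes the difference between the WT groups. In that difference 11 of the 17 were higher in Virma WT. Of the maternally expressed genes 6 of 10 were higher and 1 lower. Igf2, Peg3, Zim1, Peg10, Plagl1, Mest, Impact, Zrsr1 and Zdbf2 were lower in Mettl3 cKO with either control, and against Mettl3 WT under each setting listed for the processing that gives a value per gene. Against Virma WT with the length and GC trend removed, Zdbf2 was at −0.05 and not called. The sign turned against Virma WT for Sgce (−0.80), Snrpn (−0.23), Grb10 (1.45), Cdkn1c (0.43), Igf2r (0.24), Copg2 (0.44), Trappc9 (0.38), Gnas (−0.03) and Inpp5f (−0.22), all called but the last 2. None of the 9 rises was kept under all of them; Dlk1, Ndn and Nap1l5 kept theirs under all but the Virma WT control.

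Values of marker genes also differed between the groups. The 18 fibroblast markers, none of them at 0 in all libraries, summed to 250.3 and 266 CPM in Mettl3 WT, 472 and 466 for Mettl3 cKO, 614 and 608 for Virma WT, and 1421 and 1419 for Virma cKO. Of these 17 rose in Mettl3 cKO and 18 for Virma cKO, and 17 were higher in Virma WT than in Mettl3 WT. Among all genes tested 27.1% rose and 28.0% fell in Mettl3 cKO, and 26.2% rose and 26.1% fell in Virma cKO. The share higher in Virma WT was 25.4%. Osbpl5, Ndn, Nap1l5 and Inpp5f are the 4 imprinted genes that rose in both lines. Their group means were lowest in Mettl3 WT and highest in Virma cKO. Because they were picked as rising in both lines, their lowest group had to be a WT and their highest a cKO. The fibroblast sum was lower in Mettl3 cKO than in Virma WT. Inpp5f shared this order (8.59 and 10.0 CPM). Osbpl5 (7.57 and 5.87), Ndn (16.7 and 15.7) and Nap1l5 (3.86 and 3.37) had the reverse. The 19 primitive endoderm markers summed to 18180 and 18220 CPM in Mettl3 WT, 11780 and 11820 for Mettl3 cKO, 14500 and 14530 for Virma WT, and 3097 and 3102 for Virma cKO; 16 fell in Mettl3 cKO and 19 for Virma cKO. The 18 pluripotency markers summed to 2848 and 2855 CPM in Mettl3 WT, 2708 and 2754 for Mettl3 cKO, 2903 and 2945 for Virma WT, and 1861 and 1875 for Virma cKO. Of these 7 rose and 7 fell in Mettl3 cKO, and 3 rose and 13 fell in Virma cKO. The 13 trophectoderm markers summed to 924 to 991 CPM in the other groups and to 1239 and 1243 for Virma cKO. The keratins Krt8 and Krt18, named after their values were seen as the most abundant of the list, made up 999 and 1004 CPM of the Virma cKO sums and 695 to 753 of the others, and of the 11 markers tested 3 rose and 5 fell in Mettl3 cKO, and 4 rose and 3 fell in Virma cKO. In bulk RNA, fewer cells of a type and less RNA per cell cannot be told apart, and the part of these shifts in the imprinted gene values was not tested.

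Gene length and base composition were set beside these changes. GC content was that of the longest transcript of each gene. Imprinted genes that rose in Mettl3 cKO had a median GC content of 56.5%, and those that fell 46.8%. In Virma cKO the medians were 45.6% and 47.2%, and the median exon lengths 9089 and 5723 bases. After the length and GC trend was removed, 8 imprinted genes were higher and 16 lower in Mettl3 cKO, and 6 higher and 15 lower in Virma cKO. All genes shifted the same way, to 2953 higher and 4442 lower in Mettl3 cKO (median −0.06) and to 2562 higher and 5250 lower in Virma cKO (median −0.13). In both lines the paternally expressed genes then kept a negative median, at −0.44 and −0.57. The maternally expressed genes went to −0.19 in Mettl3 cKO, where 1 was higher and 4 were lower, and to 0.29 in Virma cKO.

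Genes that set or keep imprints also changed. Of 28 tested, 3 rose and 16 fell in Mettl3 cKO (55.1% of all genes called), and 8 rose and 11 fell in Virma cKO (52.3%). With the length and GC trend removed 4 rose and 16 fell in Virma cKO. Zfp57 rose in both, from 269.7 and 254 to 339 and 328 CPM in the Mettl3 line and from 240.0 and 237 to 314 and 320.2 in the Virma line, by 0.35 ± 0.03 and 0.41 ± 0.04. Its corepressor Trim28 was at 785 and 788 CPM in Mettl3 WT and 795 and 814 for Mettl3 cKO. With the length and GC trend removed its Mettl3 value was −0.25, and against Virma WT it was −0.38, both called. In the Virma line Trim28 fell from 1027 and 1059 to 644 and 659 for Virma cKO, by −0.68 ± 0.03. Dnmt3l, a cofactor of de novo DNA methylation, fell in both, by −0.46 ± 0.04 and −1.60 ± 0.06, and so did the de novo methyltransferase Dnmt3b, by −0.33 ± 0.04 and −1.35 ± 0.04. Zfp445 rose in Virma cKO by 0.52 ± 0.07, from 81.5 and 77.9 to 114 and 116 CPM, and was at 43.7 to 49.4 CPM in the Mettl3 line. DNA methylation itself is not analysed here.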

How the data were processed

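RNA of 8 libraries in 4 groups was measured; groups and replicate numbers follow the titles in the labels. The authors deposited raw read counts, 1 row per symbol. Per the submitters' processing notes STAR 2.7.11b, Subread, DESeq2, FastQC 0.12.1 and Trim Galore were used with build mm39. The sources used here do not give their roles, the annotation, the strand setting or the handling of multiply mapped reads. Per the labels' protocols, libraries were made from total RNA with 2 stranded or universal kits.

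The members and lists were chosen with earlier results of these data known. Members were matched by symbol. The Virma cKO pair entered as its rounded mean, which leaves 7 samples and 3 residual degrees of freedom, on the assumption that this single sample varies as the other groups do. Testing used the quasi-likelihood method in edgeR 4.0.16 (R 4.3.3) after filterByExpr, with robust dispersions and TMM scaling. P-values were adjusted after Benjamini-Hochberg over 14229 genes, threshold 0.05. Contrasts compared cKO with WT per line, these effects with each other, and the WT groups. Intervals use the t quantile of each gene's total degrees of freedom. CPM values were normalised with TMM factors of the 8 libraries. Exon length (all exons of a gene merged) and GC content (longest transcript) came from GENCODE M21 (GRCm38), matched by symbol for all 34 genes. Promoters came from RefSeq (GRCm38.p6). The fit was tested on simulated counts. Besides the members and the genes checked for their labels (Mettl3 and Virma), the text takes its genes from those of each list with the largest called changes, at most 3 per direction and comparison, without overlap between groups and with a mean log2 CPM of 2 or more.

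The alternatives were a fit of 8 separate libraries, the test of DESeq2 1.42.0, edgeR with DESeq2 size factors or total counts as scaling, no filter or 1 CPM in a group as filter, stricter calls (adjusted p of 0.01 or 2-fold), separate fits per line, a replicate block, a length and GC correction by loess, each library left out in turn, Virma WT as another control for Mettl3 cKO, and, chosen after seeing the data, both Virma pairs as 1 sample each. Replicate numbers do not pair the libraries: deviations of same-numbered libraries from their group means correlated at −0.009 to 0.023.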

Additional observations from a re-analysis of the deposited data

Results flagged for a closer look

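The effect of the knockout differed between the lines for 18 of 33 imprinted genes (54.5%), against 39.1% of all genes tested. This was a test of the difference itself (edgeR quasi-likelihood test, Benjamini-Hochberg adjustment over all genes). The values are the Virma effect minus the Mettl3 effect on the log2 scale. Igf2 (1.10), Peg10 (0.82) and Peg3 (0.45) fell in both lines and fell less in the Virma line, as did Impact (0.24). Plagl1 (−0.29), Mest (−0.29) and Nnat (−0.62) fell more in the Virma line. Igf2r (1.12), Zdbf2 (0.90), Ube3a (0.73) and Ppp1r9a (0.72) fell in Mettl3 cKO and rose in Virma cKO, and Gnas (−0.26) did the reverse. Grb10 (0.85) and Ascl2 (0.56) rose in Virma cKO, with a Mettl3 change that was not called. Cdkn1c (0.89) and Copg2 (0.46) fell in Mettl3 cKO, with a Virma change that was not called; Dlk1 (−0.98) rose there, and Snrpn (−0.73) fell in Virma cKO, each without a call in the other line.

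Of these, Plagl1 lost its call when Mettl3 WT library 2 (−0.20), Mettl3 cKO library 1 (−0.29) or library 2 (−0.30), or Virma WT library 2 (−0.23) was left out. Nnat lost it without Mettl3 cKO library 1 (−0.65) or library 2 (−0.58), Virma WT library 2 (−0.47) or Virma cKO library 2 (−0.56). Impact lost it without Mettl3 cKO library 1 (0.20) or Virma WT library 2 (0.24). With the length and GC trend removed the call was lost for Peg3 (0.05), Ppp1r9a (0.26), Copg2 (0.21), Nnat (−0.38), Ube3a (−0.02) and Impact (−0.06), and Zdbf2 was at 0.40.

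Outside the imprinted set the effects differed for Mettl3 (−0.38), Virma (−0.42), Trim28 (−0.71), Dnmt3l (−1.14), Dnmt3b (−1.02), Zfp445 (0.52), Igfbp2 (−1.41), Igfbp3 (0.99) and Igfbp4 (−0.63). Zfp445 was at 0.17 and not called with the trend removed. Mettl3 itself was lower in Virma cKO than in Virma WT, by −0.42 ± 0.09, at 34.1 and 33.5 CPM against 45.8 and 44.2, while its change in the libraries labelled Mettl3 cKO was −0.04 ± 0.07. The difference for Mettl3 lost its call without Virma WT library 1 (−0.36).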

How the results depend on the processing

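In the Mettl3 line 13 of the 17 falls and 3 of the 9 rises kept their call under all settings that give a value per gene and use the Mettl3 WT control, and in the Virma line 9 of 13 falls and 6 of 11 rises did. A 2-fold minimum left 5 called genes in Mettl3 cKO (2 higher, 3 lower), 3 in Virma cKO (2 higher, 1 lower), 2 for the difference of the effects (2 higher, 0 lower; 6 were lower without the minimum) and 5 between the WT groups (3 higher, 2 lower). DESeq2 called 4 rises in Mettl3 cKO in place of 9. Removal of the length and GC trend left 6 rises in Virma cKO and 7 higher values for the difference. Among called values it turned the sign in Mettl3 cKO for Phlda2 (−0.03), Tssc4 (−0.17), Ube3a (0.15) and Gnas (−0.04), in Virma cKO for Zdbf2 (−0.01), and of the difference for Ube3a (−0.02) and Impact (−0.06). Among values not called under either setting it turned 3 in Mettl3 cKO (Grb10, Ascl2 and Snrpn), 2 in Virma cKO (Phlda2 and Tssc4), 6 of the difference and 1 between the WT groups. With Virma WT as control for Mettl3 cKO the sign turned for Cdkn1c (0.43), Igf2r (0.24), Copg2 (0.44), Gnas (−0.03), Trappc9 (0.38), Inpp5f (−0.22), Igfbp3 (−0.24), Igfbp5 (−1.03) and Igfbp7 (−0.10), and for Sgce (−0.80), Snrpn (−0.23) and Grb10 (1.45), which became called. For these reversals the cause was not tested.

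Scaling by total count gave summed paternal levels of 1904 CPM in Mettl3 WT, 3505 in Virma WT and 2769 in Virma cKO, and maternal levels of 292 and 473 in Virma WT and Virma cKO. Over all genes it moved the share of calls that were higher from 50% to 65.4% in Virma cKO and from 45.8% to 60.3% for the difference. Trend removal moved these shares to 32.8% and 28.6%. Leaving out each library gave 20 to 26 called imprinted genes in Mettl3 cKO, 19 to 25 in Virma cKO, 14 to 21 for the difference and 22 to 25 between the WT groups. The number pairs no libraries; with the replicate block 26 imprinted genes were called in Mettl3 cKO and 26 in Virma cKO, against 26 and 24 without it. Genes with few counts, such as Mkrn3, Slc22a18, Zim1 and Magel2, have the widest standard errors, and the lone Virma cKO sample limits all values of that group.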

Other observations

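A further list of imprinted genes had 34 tested genes of 44 with a row. Of these 8 rose and 9 fell in Mettl3 cKO, and 13 rose and 7 fell in Virma cKO, with median log2 fold changes of 0.08 and 0.12. With all 8 libraries entered separately 18 rose in Virma cKO, and with DESeq2 6 did. These shares lie near those of all genes in Mettl3 cKO (17 of 34 called, against 55.1% of all genes) and Virma cKO (58.8%, against 52.3%).

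The sequence GGACT, a common m6A context, was counted in the longest transcript of each gene. Its median density was 1.01 per kilobase in the 33 tested genes and 1.05 over the 13944 tested genes with an annotation. It was 0.60 in the paternally and 1.37 in the maternally expressed genes. The genes that fell had 0.648 per kilobase in Mettl3 cKO and 0.445 in Virma cKO, and those that rose 1.502 and 1.35. The density was not taken over all genes that fell or rose, so this split is not known to be particular to imprinted genes. It was not separated from class or GC content. These are descriptions of the sequence, and methylation of these transcripts is not analysed here.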
